A study of Rattus norvegicus with 9 samples.

Results

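Genomic DNA of N27 cells, an established rat line of dopaminergic neural origin, was compared after exposure to MPP+ and without exposure, on 3 arrays of each kind. These 6 arrays, of 9 in the series, were chosen by their labels: MPP+ replicates 1 to 3 against control replicates 1 to 3. Per the labels, the MPP+ cells received a dose below the lethal one, the control cells received no toxicant, and the 3 replicates of a group were independent biological replicates. Neither the dose nor the length of exposure is given in the sources used here. Both groups share the line and the standard medium, and a single line is the only model in the comparison. DNA fragments were bound to an array designed for rat gene expression, where an antibody against 5-methylcytosine, followed by a Cy3-labelled antibody, marked its methylated cytosines. The brightness of a spot is therefore a relative methylation signal of DNA bound by a probe placed in a transcript, not a level at a promoter and not a percent of methylation. The question addressed is at which genes this signal differs after MPP+.

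MPP+ is the toxic metabolite of MPTP. The dopamine transporter, encoded by Slc6a3, carries it into dopaminergic neurons, the vesicular transporter encoded by Slc18a2 stores it away from the cytoplasm, and MPP+ that reaches the mitochondria blocks complex I of the respiratory chain. Cytosine methylation is written by Dnmt1, Dnmt3a and Dnmt3b, and Tet1 and Tet2 start its removal.

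The 6 arrays were dim, and their replicates did not share a pattern of bright genes. The median gene spot read 234, 236 and 196 intensity units on MPP+ replicates 1, 2 and 3, against local backgrounds of 216, 221 and 186. On control replicates 1, 2 and 3 it read 207, 168 and 165, against backgrounds of 187, 157 and 158. Across the 42877 gene spots, Pearson's r of log2(spot / background) between arrays lay between -0.0054 and 0.0034 within MPP+, between -0.0027 and 0.0137 within control, and between -0.0086 and 0.0234 between the groups. These correlations run across spots, which are not independent replicates. By the scanner coordinates, the MPP+ arrays lay at places 1, 1 and 2 along a slide and all control arrays at place 4, so place and treatment cannot be told apart. Replicate 3 of each group carries a second channel, and replicates 1 and 2 carry the Cy3 channel alone.

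Control replicate 3 and control replicate 2 stand apart from the other arrays in ways that bear on every control value. The scanner output of control replicate 3 equals that of Mn replicate 3 at every value. It counts as control here because 99.9% of the values in the control replicate 3 column of the authors' deposited table are found in it. Being equal, the output of Mn replicate 3 holds the same 99.9% of that column. Apart from this pair, an output of another array held at most 5.76% of the values of any of the 6 columns. Other pairs of outputs had equal spot medians at no more than 0.677% of spots. Control replicates 2 and 3 also resembled each other once the grid of spots was displaced. With a displacement of 2 rows and 1 column, the locally detrended log2 spot medians of the control pair correlated at 0.237, and the local backgrounds at 0.268. Without displacement these values were 0.0379 and 0.0578. The other 14 pairs of arrays reached at most 0.0259 for spots and 0.0211 for backgrounds over all displacements of up to 6 rows and columns. Of the 100 brightest spots of each, control replicates 2 and 3 shared 38 after displacement and 7 on the same grid, and the other pairs shared 0. Displaced spots lay a median of 47 scanner units apart in X and 9 in Y, where neighbouring spots are 71 units apart by column and 63 by row. Only 1.00% of the displaced spots carry the same probe identifier on both arrays. Whether these outputs come from 1 slide area was not tested beyond these values, and results are given below with both arrays and, where it matters, with the pair averaged and counted as 1 array.

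**Figure D1:**
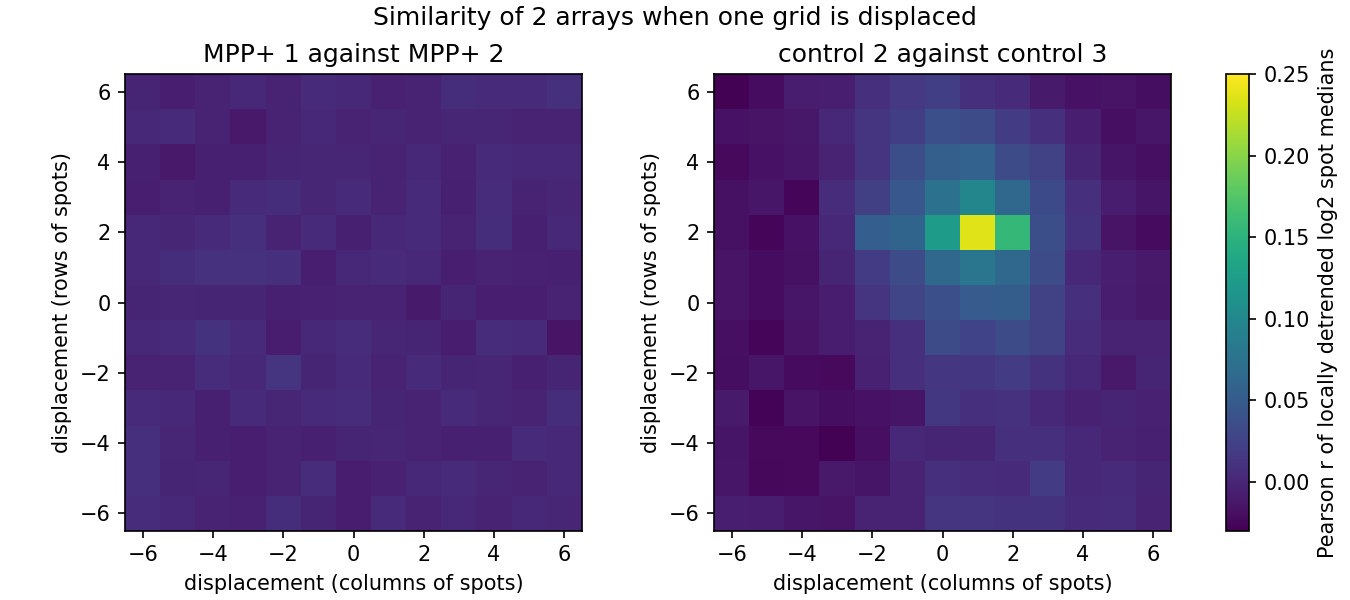
Pearson's r of locally detrended log2 spot medians (colour) between 2 arrays, for each displacement of 1 grid in columns (x axis) and rows (y axis) of spots, for MPP+ replicates 1 and 2 (left) and control replicates 2 and 3 (right). The control pair peaks at 0.237 at 2 rows and 1 column, and no displacement stands out for the MPP+ pair.

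Gene spots were not brighter than blank spots in a way that set MPP+ apart from control. The blank spots, DarkCorner spots and negative controls, are 757 spots on each array that carry no rat sequence by design. The median log2 ratio of gene spot to local background was 0.109, 0.085 and 0.071 on MPP+ replicates 1, 2 and 3, against 0.142, 0.092 and 0.059 on the controls. The MPP+ values fell inside the range of the control values. The mean difference was -0.0089 on the log2 scale (two-sided exact permutation test over arrays, p = 0.8). Here and in the array tests below, 3 arrays against 3 can give no p under 0.1. Without control replicate 1 this difference was 0.0134, so its sign rests on that array.

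Blank spots gave nearly the same medians. They stood at 0.086, 0.045 and 0.052 on the MPP+ arrays, against 0.114, 0.101 and 0.068 on the control arrays. Gene spots exceeded blank spots by 0.0231, 0.0403 and 0.0192 on MPP+ replicates 1, 2 and 3, and by 0.0276, -0.0095 and -0.0089 on control replicates 1, 2 and 3. All 3 MPP+ arrays were above 0, and 1 of 3 control arrays was. The means were 0.0275 ± 0.0112 in MPP+ and 0.0031 ± 0.0212 in control (SD, n = 3 each; difference 0.0244, two-sided exact permutation p = 0.3). With control replicates 2 and 3 averaged and counted as 1 array, the difference was 0.0183 (exact permutation p = 0.6, smallest possible 0.2).

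**Figure D2:**
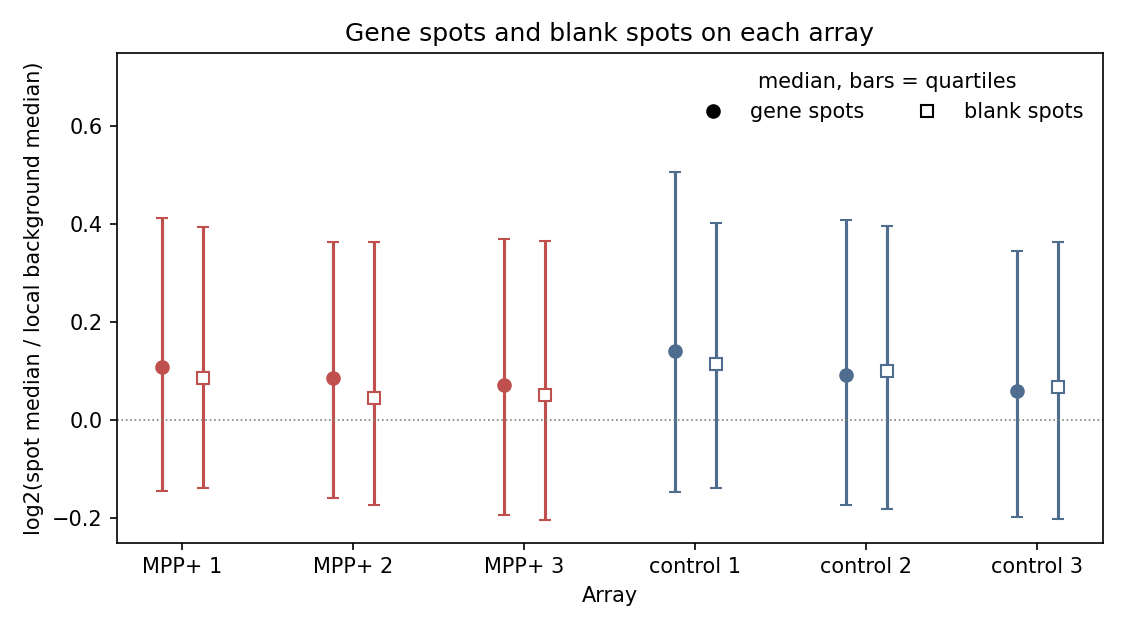
Median log2 ratio of spot to local background on each array (y axis) for gene spots (filled circles) and blank spots (open squares), with bars from the lower to the upper quartile. The quartiles of gene and blank spots overlap on all 6 arrays, and the gene medians lie between 0.071 and 0.109 in MPP+ and between 0.059 and 0.142 in control.

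A spot was called above background when its median exceeded the local background median by more than 2 background SDs. Gene spots met this in 3.25%, 2.63% and 1.74% of cases on MPP+ replicates 1, 2 and 3, and in 4.32%, 3.69% and 1.79% on the control arrays. The group means were 2.54% ± 0.762 in MPP+ and 3.26% ± 1.32 in control (SD, n = 3 each; difference -0.725 percentage points, two-sided exact permutation p = 0.4). With 1 array left out this difference ran between -1.46, without control replicate 3, and -0.197, without control replicate 1, and within the 2-channel arrays it was -0.0490. Among blank spots the shares were 2.77%, 2.91% and 2.64% in MPP+ and 3.30%, 1.85% and 1.45% in control. Pooled over arrays, 2.54% of gene spots (95% Wilson interval 2.46 to 2.63) and 2.77% of blank spots (2.17 to 3.53) passed in MPP+. In control, 3.26% of gene spots (3.17 to 3.36) and 2.20% of blank spots (1.67 to 2.89) passed. The pooled MPP+ intervals for gene and blank spots overlap, and the pooled control intervals do not. Taken by array, they overlap on every array but control replicate 2 (gene 3.51 to 3.87, blank 1.10 to 3.08). The gap in control is therefore not a trait of each control array. The intervals cover counting error only. The excess of gene over blank spots was -0.234 ± 0.693 percentage points in MPP+ and 1.06 ± 0.753 in control (SD, n = 3 each; difference -1.30, two-sided exact permutation p = 0.2). At 3 background SDs the difference was -0.749.

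Few probes were above background on more than 1 array. A probe was called above background from the mean of its spots: 28977 of the 30367 gene probes have 1 spot and 1390 have 10 spots. Of all gene probes, 25663 (84.5%) were above background on 0 of 6 arrays, 4345 on 1, 348 on 2, 10 on 3 and 1 on 4. On all 3 arrays of a group, 0 probes passed in MPP+ and 1 in control, the probe of Pth2r. On exactly 2 arrays of a group, 54 passed in MPP+ and 102 in control.

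The probes with 10 spots show how far a bright spot repeats within an array. Their 10 spots carry the same sequence at different places. The intraclass correlation among them was 0.0034, -0.0020 and -0.0016 on MPP+ replicates 1, 2 and 3, and -0.0033, 0.0016 and 0.0004 on control replicates 1, 2 and 3. At most 3 of the 10 spots of any such probe were above background on any of the 6 arrays. The SD of the means over 10 spots lay between 0.156 and 0.185 (log2), where spots with no shared component would give 0.158 to 0.188.

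At least 3 of the 6 arrays were above background for 11 of the 30367 gene probes, and these were tested apart. Pooled over the 6 arrays, 2.90% of gene spots and 2.49% of blank spots passed, so passing does not itself show a gene signal. How many probes would pass on 3 arrays at such rates alone was not tested. limma, with Benjamini-Hochberg adjustment over these 11 probes, called 0% of them (0 of 11; lowest adjusted p = 0.567, 0 at an unadjusted p under 0.05), with 4 higher and 7 lower in MPP+. Of the 11, 6 have a gene symbol, and their levels follow as normalised log2 intensity.

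Pth2r, a receptor of the parathyroid hormone family, passed the filter through the control arrays alone, the group where it is high, so the filter itself favoured a difference for this probe. It read 6.96, 7.26 and 7.12 on MPP+ replicates 1, 2 and 3, all not well above background, against 8.34, 8.18 and 8.07 on the control arrays, all above background. The groups do not overlap. Its mean was 7.11 ± 0.15 in MPP+ and 8.20 ± 0.14 in control (SD, n = 3 each; log2 difference -1.09, SE 0.46; adjusted p = 0.567 in limma over the 11 probes). In control it was at least 2.07-fold brighter. Such a bound sets the mean of the brighter group against the mean, over the dimmer arrays, of the lowest signal above background or the probe's own signal, whichever is higher. Where some arrays of the brighter group were themselves dim, they enter its mean. The bound is taken on group means and does not allow for the spread between arrays.

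Higd1a encodes a mitochondrial protein that is induced by low oxygen. It read 8.27, 7.31 and 6.91 on the MPP+ arrays, against 7.44, 13.19 and 6.80 on the control arrays. A single array, control replicate 2, holds the high value, and the groups overlap (log2 difference -1.65, SE 1.73; adjusted p = 0.690 in limma). Without control replicate 2 this probe was above background on too few arrays to be tested.

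Rcor3, a corepressor that works with REST, read 7.05, 9.27 and 6.80 in MPP+, against 8.78, 9.73 and 7.74 in control. Its 3 arrays above background were MPP+ replicate 2 and control replicates 1 and 2, and the groups overlap (log2 difference -1.05, SE 0.90; adjusted p = 0.690 in limma). Ears2, the mitochondrial glutamyl-tRNA synthetase, was above background on the same 3 arrays and read 6.66, 9.93 and 6.89 in MPP+, against 8.32, 8.41 and 7.25 in control. Its difference was -0.17 (SE 1.00; adjusted p = 0.936 in limma) and turned positive without MPP+ replicate 1, at 0.38, and without MPP+ replicate 3, at 0.33.

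Rin3, an activator of the endosomal GTPase Rab5, read 6.76, 7.28 and 9.48 in MPP+, against 8.26, 9.56 and 6.98 in control. The highest value of each group came from a different replicate number, and the difference of -0.43 (SE 1.01; adjusted p = 0.936 in limma) was 0.11 without MPP+ replicate 1. Tll1, a metalloprotease related to tolloid, was the probe above background on 4 arrays: 9.64, 6.75 and 10.24 in MPP+, against 9.27, 7.41 and 9.67 in control. Replicate 2 was the low one in both groups, and the difference was 0.09 (SE 1.13; adjusted p = 0.936 in limma). It reversed to -0.11 with arrays centred on their medians and to -0.59 without control replicate 2.

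**Figure D3:**
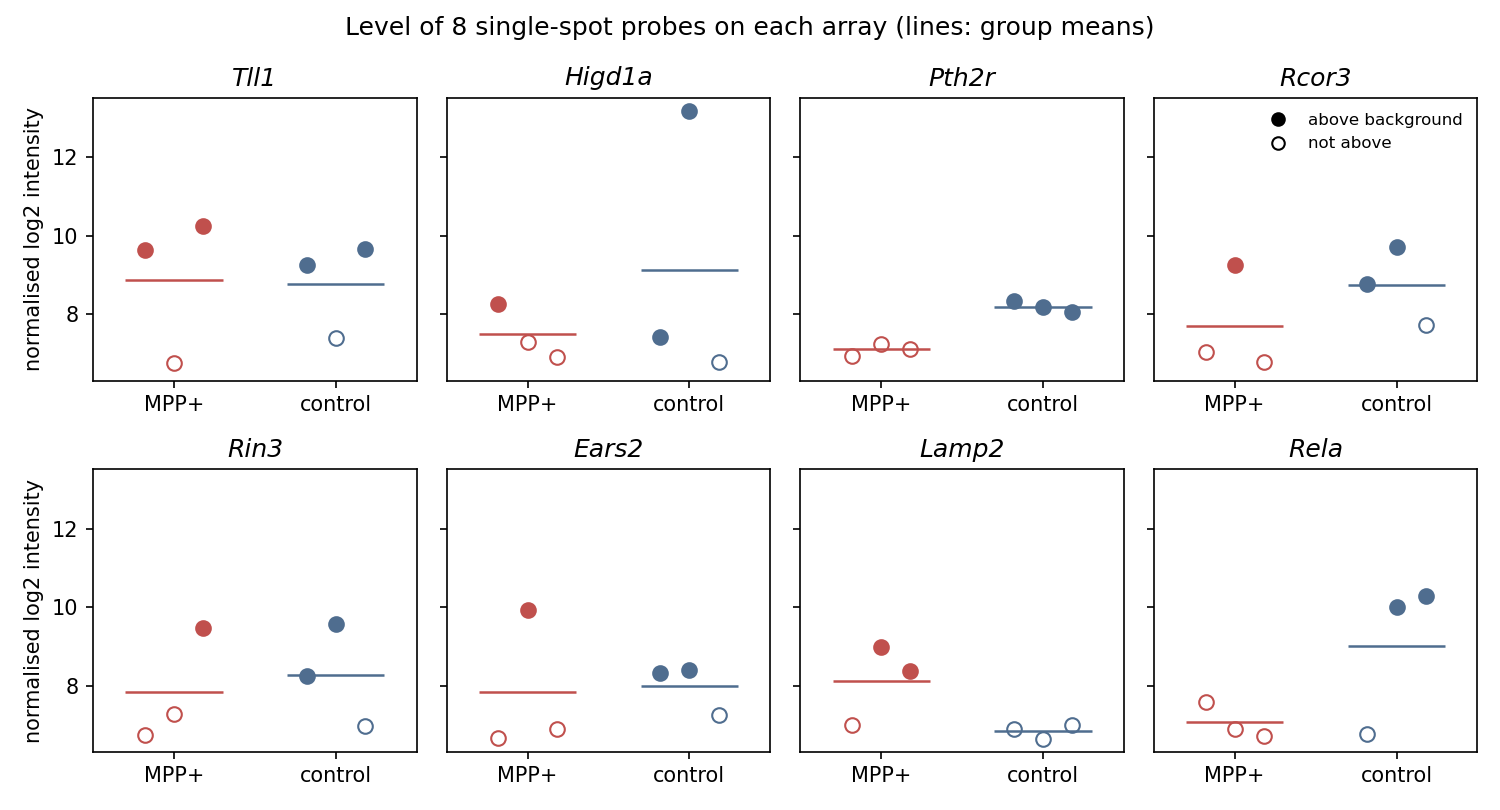
Normalised log2 intensity (y axis) of 8 single-spot probes on the 3 MPP+ arrays (red) and the 3 control arrays (blue), with group means as lines; filled points are above background, open ones are not. Pth2r is filled on all 3 control arrays and on no MPP+ array, Lamp2 on MPP+ replicates 2 and 3, and Rela on control replicates 2 and 3.

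Over all 30367 gene probes, dim ones included, no gene passed the test either. limma called 0% of them (lowest adjusted p = 0.898), and 853 probes had an unadjusted p under 0.05, of which 416 were higher in MPP+ (1.37% of all probes) and 437 lower (1.44%). Of these probes, 15135 were higher and 15232 lower in MPP+, with a median difference of -0.0011. Complete separation of the 3 MPP+ values from the 3 control values occurred in 4.91% of probes with MPP+ higher and in 5.00% with MPP+ lower.

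Blank spots separated as often as gene spots. Counted by spot, the groups were separated with MPP+ higher at 4.99% of gene spots and 4.76% of blank spots, and with MPP+ lower at 4.98% of gene spots and 5.42% of blank spots. The MPP+ minus control difference had an SD of 0.453 over gene spots and 0.426 over blank spots (log2). Outside the central 95% of the blank differences lay 5.35% of gene spots (95% exact binomial interval 5.14 to 5.57), against 5.02% of the blank spots themselves. The blank limits were -0.795 and 0.926, and the same percentiles of the gene differences were -0.892 and 0.872.

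The probes with 10 spots average over place, and the 5 of smallest p in each direction are given although 0 passed the test. All 10 have an adjusted p of 0.898 in limma. The groups do not overlap for any of them, which follows largely from the choice by p, and the same holds for 4.91% of all probes with MPP+ higher and 5.00% with MPP+ lower. Ccdc22, on control replicate 1, was the only case above background among these 10 probes and 6 arrays. The largest difference among the 5 that were higher was that of Aspm, a protein of the mitotic spindle poles: 7.97, 8.24 and 7.35 in MPP+, against 7.05, 7.16 and 7.21 in control (log2 difference 0.71, SE 0.25). Dnaaf8, which helps assemble the dynein arms of cilia, read 7.67, 7.61 and 7.62 in MPP+, against 7.01, 7.13 and 6.96 in control (difference 0.60, SE 0.13). For each of these genes the MPP+ arrays had 0 to 2 of the 10 spots above background.

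Rasd2, a small GTPase abundant in striatum, differed by 0.38 (SE 0.17), Clec9a, a receptor of dendritic cells, by 0.38 (SE 0.17), and Triqk by 0.44 (SE 0.16). Lower in MPP+ were Ccdc22, a subunit of an endosomal sorting complex, Tal1, a transcription factor of blood cell formation, Rpl15, a protein of the large ribosomal subunit, Tef, a clock-controlled transcription factor, and Fibin. Ccdc22 read 7.23, 7.04 and 7.07 in MPP+, against 7.71, 7.44 and 7.41 in control (log2 difference -0.41, SE 0.16). On group means the bound, as given for Pth2r, was 1.31-fold toward control. Tef differed by -0.45 (SE 0.19), Rpl15 by -0.37 (SE 0.15), Tal1 by -0.36 (SE 0.14) and Fibin by -0.33 (SE 0.15). With the median in place of the mean of its 10 spots, Tal1 turned to 0.07. Under settings that left no array out, Dnaaf8 ran from 0.17 to 0.73, Aspm from 0.32 to 1.03 and Ccdc22 from -0.47 to -0.10.

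The genes that carry and store MPP+ gave almost no signal. Slc6a3, whose product takes MPP+ up, passed on control replicate 2 only and read 6.84, 6.83 and 7.002 in MPP+, against 6.84, 7.95 and 7.12 in control. Its difference of -0.41 (SE 0.30) rests on that array. Slc18a2, the vesicular transporter, was above background on 0 arrays, although its groups do not overlap: 7.20, 7.21 and 7.57 in MPP+, against 7.12, 6.98 and 6.75 in control (difference 0.37, SE 0.18; adjusted p = 0.898 in limma).

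Th, which makes the precursor of dopamine, was above background on 0 arrays and read 6.96, 7.24 and 6.79 in MPP+, against 7.13, 6.73 and 7.36 in control. Drd2, a dopamine receptor, has 2 probes of 10 spots each. The first read 7.04, 7.12 and 7.09 in MPP+, against 7.06, 7.69 and 7.23 in control, and was above background on control replicate 2 alone. Its difference was -0.24 (SE 0.20). The other was above background on 0 arrays, with a difference of 0.03 (SE 0.13), and no test was made between the probes. A methylation signal does not show which genes a cell expresses, so the labelled cell type could not be checked against its markers in these data.

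Of the complex I subunits fixed for naming, Ndufs3 was above background on control replicate 2 alone and read 7.34, 6.93 and 7.13 in MPP+, against 6.92, 7.78 and 7.27 in control. Ndufs1 and Ndufv1, which hold redox centres of the complex, were above background on 0 arrays, with differences of -0.04 (SE 0.19) and -0.10 (SE 0.16). Pink1, a kinase of mitochondrial quality control, differed by 0.32 (SE 0.40), and the 3 probes of Park7, a redox-sensitive chaperone, by 0.20, -0.23 and -0.41, all without signal above background.

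The antioxidant genes Nfe2l2, Gclc, Hmox1 and Sod2 and the trophic factors Bdnf and Gdnf were above background on 0 arrays. Their differences lay between -0.21 for Sod2 (SE 0.24) and 0.40 for Nfe2l2 (SE 0.23), the transcription factor that induces antioxidant genes. Dnmt1, the maintenance methyltransferase, differed by -0.07 (SE 0.18) and Dnmt3a, a de novo methyltransferase, by -0.49 (SE 0.46), both also without signal above background. No probe was matched to Dnmt3b, Tet1 or Tet2 by its accession.

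Described by gene group, 0 of the 610 members of the 21 lists passed the test, with the brightest probe on average taken for each gene (adjusted p = 0.898 at the lowest). The median difference was above 0 in 13 lists and below 0 in 8. The 35 complex I genes had a median difference of -0.045, with 17 higher and 18 lower in MPP+. The 13 genes of MPP+ uptake and sequestration had the highest median, 0.122, with 9 higher and 4 lower. The 30 genes of the unfolded protein response and heat shock had the lowest, -0.178, with 9 higher and 21 lower. The 40 genes of calcium and ion channels had a median of 0.10, with 26 higher and 14 lower. Over all 15507 genes the median was -0.0012, with 7721 higher and 7786 lower. The middle 50% of single genes spanned -0.191 to 0.194.

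**Figure D4:**
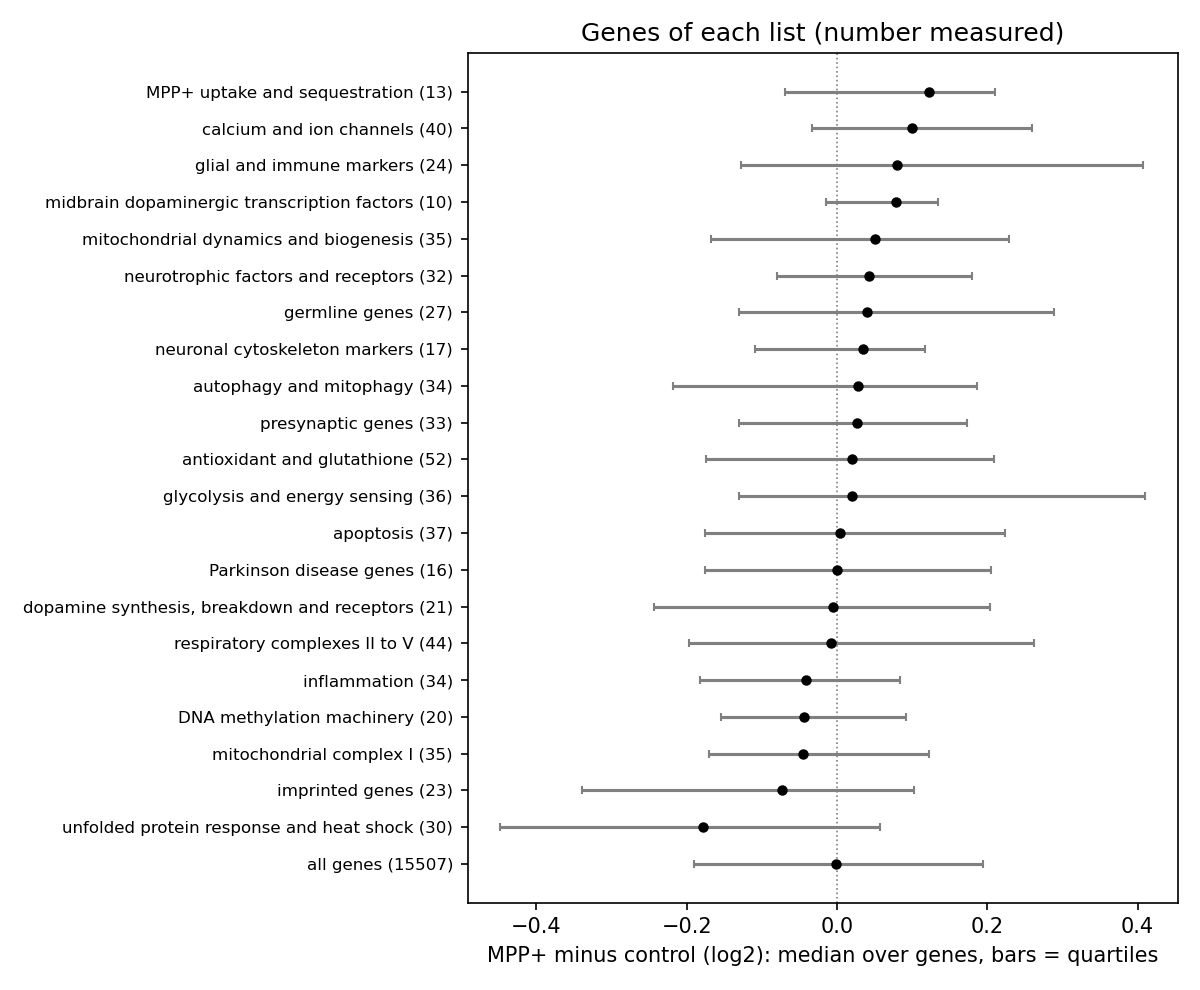
Median MPP+ minus control difference in log2 intensity (points, x axis) and lower to upper quartile (bars) of the genes of each list, with the number of genes measured in brackets and all genes in the last row. The list medians run between -0.178, for the unfolded protein response and heat shock, and 0.122, for MPP+ uptake and sequestration.

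Among the 610 members of the lists, 6 were above background on at least 2 of the 6 arrays. Of all 30367 gene probes, 348 (1.15%) were above background on exactly 2 arrays, 10 on 3 and 1 on 4. Whether list members passed more often than other probes was not tested, so the 6 do not set the lists apart. Lamp2, a protein of the lysosomal membrane, was 1 of the 6 and read 7.01, 8.997 and 8.36 in MPP+, against 6.90, 6.64 and 6.998 in control. The groups do not overlap (log2 difference 1.28, SE 0.49, adjusted p = 0.898 in limma). On group means the bound, as given for Pth2r, was 2.10-fold toward MPP+, where 2 of 3 arrays were above background. Lamp2 was chosen through MPP+ arrays alone, and Rela and Rec8 through control arrays alone. For these genes the choice itself favoured a difference, and their bounds carry that limit. Rela, a subunit of the transcription factor NF-kB, read 7.58, 6.89 and 6.73 in MPP+, against 6.76, 10.01 and 10.28 in control. Its bright arrays are control replicates 2 and 3, the pair that matched after displacement. On group means the bound was 3.44-fold toward control, although control replicate 1 lay below MPP+ replicate 1. The groups overlap (difference -1.95, SE 0.94, adjusted p = 0.898 in limma).

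Gstm2 and Gstt2, which join glutathione to toxic compounds and belong to families of similar genes, were bright on MPP+ replicate 2 and on 1 control array each. Gstm2 read 7.52, 8.33 and 7.59 in MPP+, against 6.89, 8.67 and 7.35 in control, and Gstt2 read 7.71, 8.96 and 6.98 in MPP+, against 7.11, 6.87 and 11.21 in control. Cox7a2, a subunit of respiratory complex IV, was above background on MPP+ replicate 1 and control replicate 2 and differed by 0.37 (SE 0.79). Rec8, a cohesin subunit of meiosis, was above background on control replicates 1 and 2 and differed by -0.52 (SE 0.57). The groups overlap for all 4 of these genes.

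An unadjusted p under 0.05 was found for 11 of the 610 members (1.80%), against 435 of all 15507 genes (2.81%), so such members were no more frequent than such genes at large. Of the 11, 6 were higher in MPP+ (0.984%, beside 1.40% of all genes) and 5 lower (0.820%, beside 1.41%), all with an adjusted p of 0.898 in limma. They are named after their values were seen, as a description. Syn1, which tethers synaptic vesicles, had the smallest p among them: 6.95, 7.10 and 7.11 in MPP+, against 8.11, 8.04 and 7.92 in control, above background on 0 arrays (difference -0.97, SE 0.14). Asb4, an imprinted gene for a ubiquitin ligase adaptor, read 6.84, 7.18 and 7.21 in MPP+, against 9.59, 8.45 and 8.86 in control (difference -1.89, SE 0.31). It was above background on 1 control array, and on group means the bound was 3.51-fold toward control. Also lower in MPP+ were Elavl3, a neuronal RNA-binding protein (-0.67, SE 0.24), Cd68, a lysosomal protein of macrophages (-0.71, SE 0.29), and the efflux pump Abcg2 (-0.40, SE 0.17).

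Higher in MPP+ were Endog, a mitochondrial nuclease released in apoptosis (1.09, SE 0.28), Nnat, an imprinted gene of the brain (0.67, SE 0.17), Eno1 and Ldha of glycolysis (0.89, SE 0.35, and 0.40, SE 0.17), Tfeb, which drives lysosomal genes (0.40, SE 0.16), and Lamp2, described above. Of these, Eno1 was above background on 1 MPP+ array and Lamp2 on 2, and the others on 0. The groups overlap for Eno1 and not for the others, which the choice by p largely fixes. Endog read 8.41, 8.03 and 7.39 in MPP+, against 6.99, 6.88 and 6.68 in control.

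Among the 37 apoptosis genes the groups were separated, without a call, for 6 with MPP+ higher and 1 with MPP+ lower, beside 4.89% and 4.86% of all genes. The 6 are Endog, the BH3-only gene Bbc3 (0.40, SE 0.18), Parp1, Faslg, Birc5 and Fadd, and the lower one is the caspase gene Casp6 (-0.35, SE 0.16), and each was above background on 0 arrays. Among the 52 antioxidant and glutathione genes, 4 were higher and 0 lower: Mgst1, a membrane-bound glutathione transferase, Prdx5 and Prdx2, which reduce peroxides, and Gstt1. Mgst1 read 9.41, 7.80 and 7.54 in MPP+, against 7.14, 7.20 and 7.04 in control. It was above background on MPP+ replicate 1 alone, and 2.19-fold brighter in MPP+ by group means (difference 1.13, SE 0.49, adjusted p = 0.898 in limma). Among the 30 stress response genes the groups were separated with MPP+ lower for Ppp1r15a, Atf3 and Hspd1, and with MPP+ higher for Trib3. Ppp1r15a, which restarts translation after stress, read 6.86, 6.84 and 6.81 in MPP+, against 8.07, 6.98 and 9.23 in control, and was above background on 1 control array. These genes, and the lists given here out of 21, were likewise picked out after their values were seen. In every other list, fewer than 4 genes were separated with MPP+ higher and fewer than 4 with MPP+ lower. Among the inflammation genes, 0 were separated in either direction. Whether separation was more frequent in any list than the 4.89% and 4.86% of all genes was not tested.

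The authors' deposited table gave 1 call, which the scanner output did not hold. This table gives, for 1 spot of each probe, the spot median divided by the background SD, a signal to noise ratio that is neither background-subtracted nor centred. Its column medians were 2.25, 2.29 and 1.93 in MPP+ replicates 1, 2 and 3, and 2.39, 2.67 and 1.78 in the control replicates. It lists 885 probes for MPP+ and 777 for control. On the 380 probes with usable values in both, limma on log2 values called 1 (0.263%), with 18 at an unadjusted p under 0.05, of which 5 were higher and 13 lower in MPP+.

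That probe belongs to Egf, the epidermal growth factor gene. In the authors' deposited table it reads 1.17, 2.68 and 1.12 in MPP+, against 3.70, 7.15 and 8.05 in control (log2 difference -1.97, SE 0.497; adjusted p = 0.0491 in limma over 380 probes). The probe has 10 spots on each array, and the scanner output gives the ratio for all of them. The median of the 10 spots was 1.62, 1.31 and 1.52 in MPP+, against 1.71, 1.35 and 1.16 in control. In each control array the deposited value is the highest of the 10 spots, and in MPP+ replicates 1, 2 and 3 it ranks 2, 10 and 3 from the lowest. With all 10 spots averaged, Egf differed by 0.04 in log2 intensity (SE 0.16; adjusted p = 0.969 in limma over all probes).

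Ndufv2, a complex I subunit, and Mag, a myelin protein, are the other list members among those 18 probes. In the authors' deposited table Ndufv2 reads 1.25, 1.61 and 1.40 in MPP+, against 1.89, 5.52 and 3.46 in control, and Mag reads 2.69, 2.71 and 5.95 in MPP+, against 1.16, 1.40 and 1.91 in control. The medians of the 10 spots of Ndufv2 lay between 1.31 and 1.41 in MPP+ and between 1.45 and 1.62 in control. Those of Mag lay between 1.35 and 1.87 in MPP+ and between 1.25 and 1.59 in control. Over the probes with 10 spots, the deposited value was the highest of the 10 in 30.8% to 50.4% of cases by array. The same 1 of the 10 spots stood behind the values of all 3 MPP+ arrays in 7 of 699 probes (1.00%), and behind those of all 3 control arrays in 12 of 633 (1.90%).

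**Figure D5:**
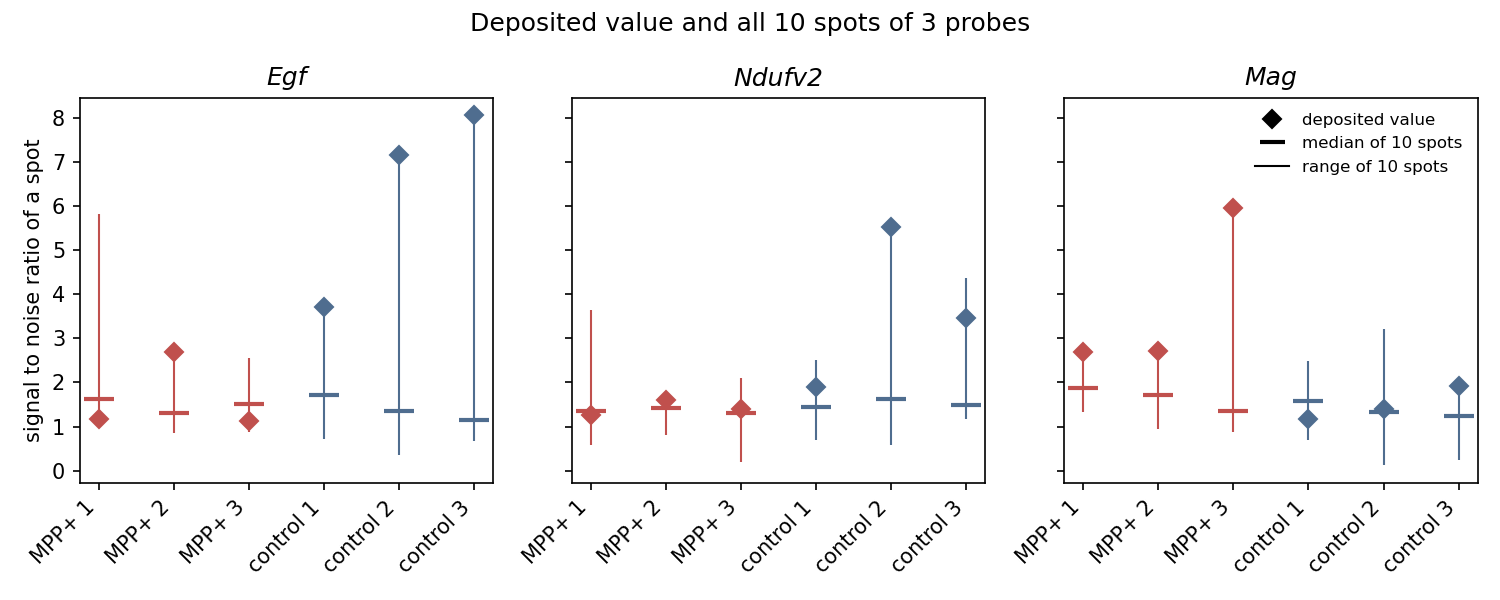
Signal to noise ratio (y axis) of 3 probes with 10 spots on each array: the authors' deposited value (diamond), the median of the 10 spots (dash) and their range (line), for MPP+ (red) and control (blue). For Egf the deposited values differ between the groups, and the medians lie between 1.31 and 1.62 in MPP+ and between 1.16 and 1.71 in control.

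Leaving out control replicate 1 gave calls from the scanner output. Without it, the control group consists of replicates 2 and 3, the pair that matched after displacement, and limma called 4 of 30367 probes and 1 of 4 filtered probes, all lower in MPP+. With replicates 2 and 3 averaged and counted as 1 array beside replicate 1, it called 0 of 30367 (lowest adjusted p = 0.130). Of the 4 probes, 3 have a symbol and are named after their values were seen: Ddn, a postsynaptic protein, Rdh16, a retinol dehydrogenase, and Psmd3, a proteasome subunit. Psmd3 read 6.97, 6.80 and 6.94 in MPP+, against 7.57, 10.03 and 9.995 in control. Rdh16 read 7.12, 6.87 and 7.70 in MPP+, against 6.87, 12.29 and 12.49 in control. Ddn read 7.10, 6.83 and 6.88 in MPP+, against 6.43, 10.79 and 10.90 in control. In all 3 the highest values are those of control replicates 2 and 3, although Psmd3 was called above background on 2 control arrays, Ddn on 1 and Rdh16 on 0. On control replicate 1, Psmd3 also lay above all its MPP+ values, Ddn lay below them and Rdh16 lay among them.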

How the data were processed

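The authors deposited 1 scanner output per array, which holds spot and local background intensity on a linear scale without normalization, per the file headers. Acquisition and normalization used ScanArray, per the labels, which name no version. The authors' deposited table holds a ratio, the spot median over the background SD (matched to the scanner output to within 0.006). Of the 385 probes it lists for both groups, 380 had values below the largest number the format holds and were tested. Spot coordinates in the deposited outputs, other numbers with no unit stated in the file headers, served to compare grids after subtracting a local mean over 15 by 15 spots.

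The Cy3 median was background-corrected (normexp, offset 50), set to log2, quantile normalized over gene spots and averaged over the spots of a probe. limma 3.58.1 (R 4.3.3, eBayes, Benjamini-Hochberg at 0.05, no block) fitted MPP+ minus control on the 6 arrays, and was tested on simulated data. Array values were compared with exact permutation tests (scipy 1.17.1). RefSeq's gene table gave 1 symbol to 18438 probes (15507 symbols) and none to 11929. No genome was used. The number of arrays limits the precision.

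Named were the tested probes with the largest differences (up to 6 each way), the 5 genes of smallest p each way among probes with 10 spots, 21 fixed genes of dopamine, complex I, oxidative stress and DNA methylation, and list members above background on at least 2 arrays. One named gene is not reported here. These members and lists were chosen with earlier results of these data known. Alternatives were other background corrections, normalizations, filters, fits and blocks, each array left out, and the deposited table. Averaging control replicates 2 and 3, moving the identifiers of control replicate 3 by the displacement, all control spots without rat sequence, and 2-channel arrays alone were added after seeing the data.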

Additional observations from a re-analysis of the deposited data

Results flagged for a closer look

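A second channel exists in the outputs of replicate 3, and no label states its content. In it, 2.78% of gene spots were above background on MPP+ replicate 3 (95% Wilson interval 2.62 to 2.94) and 1.94% on control replicate 3 (1.81 to 2.08), so the MPP+ array had the higher share in data that no comparison used. Among blank spots the shares were 2.25% on MPP+ replicate 3 (1.41 to 3.57) and 3.43% on control replicate 3 (2.35 to 4.98). With 1 array in each group there is no test. Across gene spots, log2(spot / background) of the second channel correlated with that of Cy3 at 0.185 on MPP+ replicate 3 and 0.128 on control replicate 3.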

How the results depend on the processing

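Of 110 alternative values for the comparisons, 98 kept their direction, their side of the threshold and their size within the limits set. Of 329 for single genes, 320 kept their direction, with none past the threshold. These counts include blocks by replicate number and by channel. With equal groups, such a block cannot change an array difference or a gene's log2 difference, so those entries show no stability. Pth2r, and the genes chosen by p from probes with 10 spots, have groups that do not overlap. Leaving out an array could hardly reverse them, so those entries show no stability either. Called probes numbered 0 in all settings but these: among probes above background, 1 in the authors' deposited table and 0 to 1 with an array left out (1 of 4 without control replicate 1), and among all gene probes 0 to 4 with an array left out (4 without control replicate 1). Beside 853 probes at an unadjusted p under 0.05, there were 1579 without background correction and 1998 with place on the slide as a random block. The array difference over local background was -0.0282 to 0.0134 with an array left out and 0.0123 within the 2-channel arrays. The difference in the share of gene spots above background, -0.725 percentage points, ran from -1.46 to -0.197 with an array left out and from -1.20 to -0.0490 under the other settings. The 5.35% of gene spots outside the blank range became 6.51% without background correction, 5.61% with median centring, 5.08% with DarkCorner spots alone and 4.29% to 6.69% with an array left out. Of the named genes, Tll1 reached -0.11 with median centring, -0.0272 with control replicates 2 and 3 averaged, and -0.59 to 1.18 with an array left out. With an array left out, Rin3 ranged from -1.07 to 0.11 and Ears2 from -0.59 to 0.38, and Tal1 was 0.0693 with the spot median. The cause was not tested. Same-numbered arrays correlated at 0.0031, -0.0040 and 0.0058 in their deviations from the group means. Arrays of the same group were themselves nearly uncorrelated, so these values cannot decide whether the replicate numbers pair the arrays. With the number as a block, limma called 0 of 11 and 0 of 30367 probes (lowest adjusted p 0.558 and 0.916, 647 at an unadjusted p under 0.05). The array differences (-0.0089, 0.0244, -0.725 and -1.30) are the same under any pairing of 3 arrays with 3, so this block could not move them. Signal near background limits every gene value here.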
